A study of Mus musculus with 3 samples.

Results

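CD28, ICOS, CTLA-4, PD-1, BTLA, LAG-3, CD200 and the PD-1 ligands PD-L1 and PD-L2 are the costimulatory and inhibitory surface proteins that set how a CD4+ T cell answers its antigen receptor. Their 9 genes (*Cd28*, *Icos*, *Ctla4*, *Pdcd1*, *Btla*, *Lag3*, *Cd200*, *Cd274* and *Pdcd1lg2*) were taken by name from the 31053 genes of the feature table. All 9 were measured by sequencing RNA of single CD4+ T cells from spleens of C57BL/6 mice. There were 3 libraries, 1 for each group. The 0hr-WT library held unstimulated cells of Ift20 f/f mice, which carry no Cre, and the 24hr-WT library held cells of the same genotype after 24 h with antibodies to CD3 and to CD28, each at 1 μg/mL. The 24hr-KO library held cells of Ift20 f/f CD4 cre mice, stimulated in the same way. Cre is driven by the Cd4 promoter, so *Ift20*, which encodes a carrier of membrane cargo, is deleted in T cells, and the floxed *Ift20* alleles were present in all 3 groups. The study used male mice of 5 to 10 weeks. Cells were enriched for naive CD4+ T cells and then sorted as 7AAD-CD3+CD4+. The number of mice behind each library is not given in the sources used here, and the anti-CD28 antibody is itself a ligand for 1 of the 9 products.

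CD28 is present on naive T cells and, when bound by CD80 or CD86, adds a second signal to that of the T cell receptor. ICOS and CTLA-4 are related receptors that appear after activation, ICOS as a further costimulator and CTLA-4 as an inhibitor that competes for CD80 and CD86. PD-1, BTLA and LAG-3 also restrain activated T cells, and T cells themselves can carry PD-L1, PD-L2 and CD200, the ligand of an inhibitory receptor found mainly on myeloid cells.

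The libraries kept 8031, 9903 and 13920 cells and 37133949, 116979076 and 106435143 unique molecular identifiers (UMIs, each counting 1 captured RNA molecule) in 0hr-WT, 24hr-WT and 24hr-KO. The median cell held 4627, 12167 and 5014.5 UMIs, respectively, and the shallowest kept cell 510, 709 and 1493 UMIs. *Ift20* stood at 64.4, 76.0 and 6.60 CPM (UMIs of the gene per 1000000 UMIs of the library). All 5 T cell markers were detected in each library, with a summed level of 2786 to 3458 CPM, and the erythroid and myeloid marker lists summed to at most 0.0094 and 0.62 CPM. *Cd74*, which B cells share with other cells, stood at 10.5, 42.9 and 44.4 CPM. *Cd8b1* stood at 28.6, 9.04 and 11.2 CPM. Their part in the results was not tested. Barcodes shared between a pair of libraries numbered 114 to 197. With 1 library per group there was no replicate check and no test, and every interval below is a 95% interval that covers counting error only.

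The 9 genes lie in 5 places of the genome (GENCODE M21, GRCm38). *Cd28* (chr1:60716800-60773359), *Ctla4* (chr1:60887000-60915832) and *Icos* (chr1:60977927-61000320) are neighbors on the plus strand, 113.64 kb and 62.094 kb apart. *Pdcd1* lies on the minus strand of the same chromosome at chr1:94038305-94052553, and *Lag3* at chr6:124904361-124911705, also on the minus strand. *Btla* (chr16:45224315-45257670, plus strand) and *Cd200* (chr16:45382135-45409053, minus strand) are 124.464 kb apart. *Cd274* (chr19:29367455-29388095) and *Pdcd1lg2* (chr19:29410919-29471161) follow each other on the plus strand with a gap of 22.823 kb. The antisense gene *A930007I19Rik* overlaps *Pdcd1lg2*, and the strand setting of the counting is not given in the sources used here.

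The kinship of the 3 neighbors on chromosome 1 can be read in the coding bases of the proline-rich loop with which CD28 and CTLA-4 touch CD80 and CD86. They are shown because these 3 genes also went the same way in stimulated cells with *Il2* or *Nr4a1* UMIs. In 24hr-WT cells with *Foxp3* UMIs, *Icos* and *Ctla4* were higher and *Cd28* was not. The capitals mark the codons of 3 consecutive prolines, the only such run in each coding sequence, in the GRCm38 plus strand from GENCODE transcripts. The stretches lie at chr1:60763275-60763292 for *Cd28*, chr1:60912713-60912730 for *Ctla4* and chr1:60993983-60994000 for *Icos*.
Cd28: atgtacCCTCCGCCTtac
Ctla4: atgtacCCACCGCCAtac
Icos: tttgacCCACCTCCTttt
*Cd28* and *Ctla4* shared 16 of the 18 bases, and *Icos* shared 11 with either of them.

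For the pair whose products bind each other and whose levels differed strongly between unstimulated and stimulated cells, PD-1 and PD-L2, the 120 bases before the RefSeq start site are shown. They lie at chr1:94052554-94052673 for *Pdcd1* (minus strand) and at chr19:29410799-29410918 for *Pdcd1lg2* (plus strand) in GRCm38.p6, and capitals mark GGAAA or its reverse complement TTTCC, the core letters bound by NFAT, a factor of T cell receptor signaling.
Pdcd1: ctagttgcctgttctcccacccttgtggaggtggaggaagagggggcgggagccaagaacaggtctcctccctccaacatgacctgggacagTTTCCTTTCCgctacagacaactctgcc
Pdcd1lg2: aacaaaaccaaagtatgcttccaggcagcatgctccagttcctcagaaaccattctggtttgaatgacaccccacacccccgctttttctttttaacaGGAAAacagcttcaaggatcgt
Promoters were found for 6 of the 9 genes. Over 250 bases before the start site, both strands searched, the core occurred 2 times at *Pdcd1*, 1 time each at *Pdcd1lg2*, *Cd274* and *Ctla4*, and not at *Btla* or *Cd200*. At least 1 match was present in 55.6% of 32851 promoters of that length. Neither the AP-1 letters TGANTCA, present in 6.75% of promoters, nor the STAT letters TTCNNNGAA, present in 7.02%, occurred in any of the 6. A match is a description of the letters, not a binding site.

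To describe how stimulation bears on these genes, 24hr-WT was set against 0hr-WT. All 9 levels were higher in 24hr-WT, and 7 were at least 2-fold higher, beside a background of 19.3% of the 13297 genes with at least 10 UMIs in this comparison. None was at least 2-fold lower, beside 23% of all genes. The median log2 ratio of the 9 genes was 2.17, and that of all genes was -0.09. Over the whole libraries, the genes spread over 3 ranges. *Lag3*, *Pdcd1lg2*, *Pdcd1* and *Cd200* were 16.9-fold to 75.9-fold higher. *Cd274*, *Ctla4* and *Icos* were 2.78-fold to 4.50-fold higher, and *Cd28* and *Btla* under 2-fold. These sizes changed with the UMIs of the cells. From 3000 to 6000 UMIs the log2 ratio was 1.66 (1.57 to 1.75) for *Cd28* and 2.01 (1.79 to 2.22) for *Btla*. The median of all genes there was 0.30. From 6000 to 12000 UMIs the 2 ratios were 1.03 (0.97 to 1.10) and 0.40 (0.23 to 0.58), beside a median of -0.09.

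**Figure D1:**
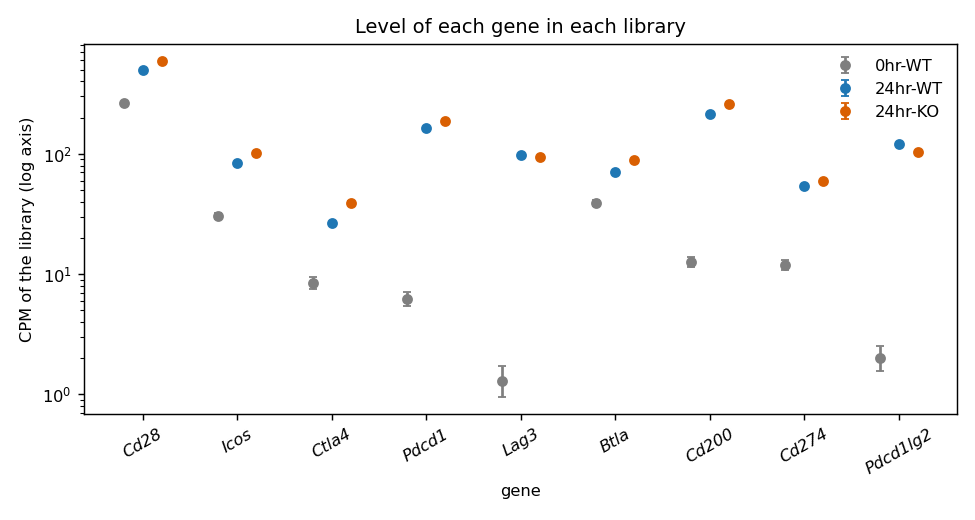
Level of each gene in each library in CPM on a log axis, with gray points for 0hr-WT, blue for 24hr-WT and orange for 24hr-KO (1 library each) and bars for exact Poisson 95% intervals. The gray points span 1.29 CPM (*Lag3*) to 263 CPM (*Cd28*), and for every gene both stimulated libraries lie above the unstimulated one and close to each other.

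Among the receptors related to CD28, *Cd28* itself was the most counted of the 9 genes in each library. It stood at 263 CPM in 0hr-WT, 498 CPM in 24hr-WT and 590 CPM in 24hr-KO. *Icos* stood at 30.4, 84.5 and 102 CPM in the same order, and its log2 ratio of 24hr-WT over 0hr-WT was 1.48 (1.39 to 1.57). *Ctla4* stood at 8.46, 26.4 and 39.2 CPM, with a log2 ratio of 1.64 (1.47 to 1.81). Thus the inducible members had larger ratios than *Cd28* (0.92, 0.89 to 0.95), but neither reached its level in the same library. UMIs were not divided by transcript length, since each counts a transcript end, so an order of levels between genes rests on equal capture of their ends.

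Among the inhibitory receptors outside the trio, *Pdcd1* and *Lag3* had far larger ratios than the trio and *Btla* a smaller one. *Pdcd1*, which encodes PD-1, had 230 UMIs in 0hr-WT (6.19 CPM) and stood at 164 CPM in 24hr-WT and 187 CPM in 24hr-KO. *Lag3*, whose product binds MHC class II, had only 48 UMIs in 0hr-WT (1.29 CPM) and stood at 98.1 and 94.0 CPM in the stimulated libraries. These gave a 26.6-fold higher level of *Pdcd1* and a 75.9-fold higher level of *Lag3* in 24hr-WT, with log2 ratios of 4.73 (4.54 to 4.92) and 6.25 (5.84 to 6.69). *Btla*, the receptor for HVEM, was already at 38.9 CPM in 0hr-WT and stood at 70.2 and 88.7 CPM after stimulation. Its log2 ratio over the whole libraries, 0.85 (0.77 to 0.93), was the smallest of the 9.

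The ligands were low in unstimulated cells and clearly counted in stimulated ones. *Cd200* stood at 12.7, 214 and 260 CPM in 0hr-WT, 24hr-WT and 24hr-KO, with a log2 ratio of 4.08 (3.95 to 4.21) for 24hr-WT over 0hr-WT. *Cd274*, which encodes PD-L1, stood at 11.9, 53.6 and 59.6 CPM, with a log2 ratio of 2.17 (2.03 to 2.31). *Pdcd1lg2*, which encodes PD-L2, had 74 UMIs in 0hr-WT (1.99 CPM) and stood at 120 and 105 CPM in the stimulated libraries, with a log2 ratio of 5.91 (5.58 to 6.26). Over the whole WT libraries the order of the PD-1 ligands was therefore opposite, with *Cd274* higher before and *Pdcd1lg2* higher after stimulation. This did not hold in shallow cells. In 24hr-WT cells under 3000 UMIs, *Cd274* stood at 228 CPM and *Pdcd1lg2* at 55.9 CPM. From 3000 to 6000 UMIs they stood at 108 and 70.2 CPM. *Cd274* was also the higher one in both ranges in 24hr-KO, at 138 against 76.6 CPM and 126 against 77.6 CPM.

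Shares of cells followed the levels only in part. In 24hr-WT without thinning, *Icos* at 84.5 CPM was found in more cells than *Pdcd1lg2* at 120 CPM or *Lag3* at 98.1 CPM. In 0hr-WT, 62.8% of cells held a *Cd28* UMI (61.7 to 63.8%), 15.9% held *Btla*, 11.6% held *Icos*, and from 0.37% (*Lag3*) to 5.13% (*Cd274*) held any 1 of the others. In 24hr-WT the shares were 92.7% for *Cd28*, 62.9% for *Cd200*, 57.0% for *Pdcd1*, 52.0% for *Icos*, 50.7% for *Pdcd1lg2*, 50.0% for *Lag3*, 46.3% for *Btla*, 37.8% for *Cd274* and 21.3% for *Ctla4*. Since stimulated cells were deeper, each cell was also thinned to 1400 UMIs, which left out 801 cells of 0hr-WT, 421 of 24hr-WT and none of 24hr-KO. At this fixed depth the share of cells with a *Pdcd1* UMI was 0.75, 19.2 and 22.2% in 0hr-WT, 24hr-WT and 24hr-KO. For *Lag3* it was 0.22, 15.3 and 15.04%, and for *Cd28* 29.8, 52.3 and 58.8%. *Icos* at this depth was found in 13.6% of 24hr-WT cells, fewer than *Lag3* and more than *Pdcd1lg2* (12.7%). Cells with UMIs of at least 2 of the 9 genes made up 5.39% of thinned cells in 0hr-WT, 47.5% in 24hr-WT and 56.7% in 24hr-KO. No barcode held UMIs of 2 or more of the B cell genes *Cd79a*, *Cd79b* and *Ms4a1*, so shares in B cell barcodes could not be set beside these. UMIs from free RNA were not measured.

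To describe how loss of *Ift20* bears on these genes in stimulated cells, 24hr-KO was set against 24hr-WT. The differences were small, with 7 genes higher, 2 lower and none past 1.5-fold. Among 13504 genes with at least 10 UMIs, 13.4% were at least 1.5-fold higher and 3.27% at least 1.5-fold lower. The strict filter on cells and the setting without *Il7r* cells put *Ctla4* past it, with log2 ratios of 0.66 and 0.59, and the strict filter turned *Lag3* to 0.0366. *Ctla4* had the largest log2 ratio, 0.57 (0.50 to 0.64). Of the 5 regulatory T cell markers, of which it is 1, *Foxp3* (0.59, 0.39 to 0.79) and *Ikzf2* (0.81, 0.51 to 1.11) were past 1.5-fold higher in 24hr-KO, *Il2ra* had 0.13 and *Tnfrsf4* -0.15, and the summed level of the 5 was 576 CPM in 24hr-WT and 573 CPM in 24hr-KO. Their part in the ratio of *Ctla4* was not tested. The next ratios were *Btla* with 0.34 (0.29 to 0.38), *Cd200* with 0.29 (0.26 to 0.31), *Icos* with 0.27 (0.23 to 0.31), *Cd28* with 0.24 (0.23 to 0.26), *Pdcd1* with 0.19 (0.16 to 0.22) and *Cd274* with 0.15 (0.10 to 0.20). *Lag3* (-0.06, -0.10 to -0.02) and *Pdcd1lg2* (-0.20, -0.23 to -0.16) were the 2 lower ones. The median of the 9 genes was 0.24 and that of all genes 0.14, and 7 of the 9 stood above the latter. Counted as UMIs per cell in place of CPM, all 9 were lower in 24hr-KO, whose cells were shallower. The number of animals, the sequencing and the genotype cannot be told apart with 1 library each.

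**Figure D2:**
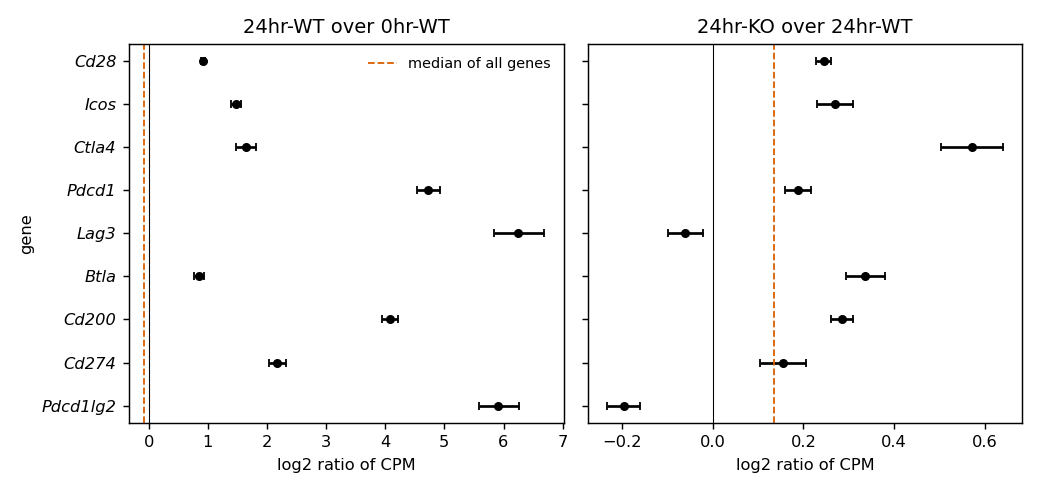
Log2 ratio of CPM of each gene for 24hr-WT over 0hr-WT (left) and 24hr-KO over 24hr-WT (right), with exact binomial 95% intervals for counting error, a solid line at 0 and a dashed line at the median of all genes. All 9 points lie right of both lines on the left, from 0.85 to 6.25, and on the right they lie between -0.20 and 0.57.

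Depth within a library moved with most of these genes, and the libraries differed in it. Cells under 3000 UMIs made up 16.6% of 0hr-WT, 21.7% of 24hr-WT and 39.6% of 24hr-KO. In 24hr-WT, *Cd28* stood at 1383 CPM in cells under 3000 UMIs and at 456 CPM in cells of 12000 to 24000 UMIs. *Lag3* stood at 345 and 85.3 CPM, *Cd274* at 228 and 48.4 CPM, and *Ctla4* at 106 and 22.7 CPM in the same cells. *Pdcd1lg2* was the exception, with 55.9 CPM in the shallow and 129 CPM in the deep cells. In 24hr-WT, 6 of the 9 genes were at least 2-fold higher in the shallow cells, beside 45.2% of 12289 genes, and 1 was at least 2-fold lower, beside 6.79%. In 24hr-KO, 6 were at least 2-fold higher, beside 37% of 12260 genes, and none was 2-fold lower, beside 1.49%. The share of the 9 genes stood above the background, a difference that rests on few genes and was not tested. The median of all genes was itself higher in shallow cells, by 0.84 on the log2 scale in 24hr-WT and 0.63 in 24hr-KO. *Pdcd1* and *Pdcd1lg2* lay below that median in both libraries, with 0.70 and -1.20 in 24hr-WT and 0.30 and -0.64 in 24hr-KO.

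**Figure D3:**
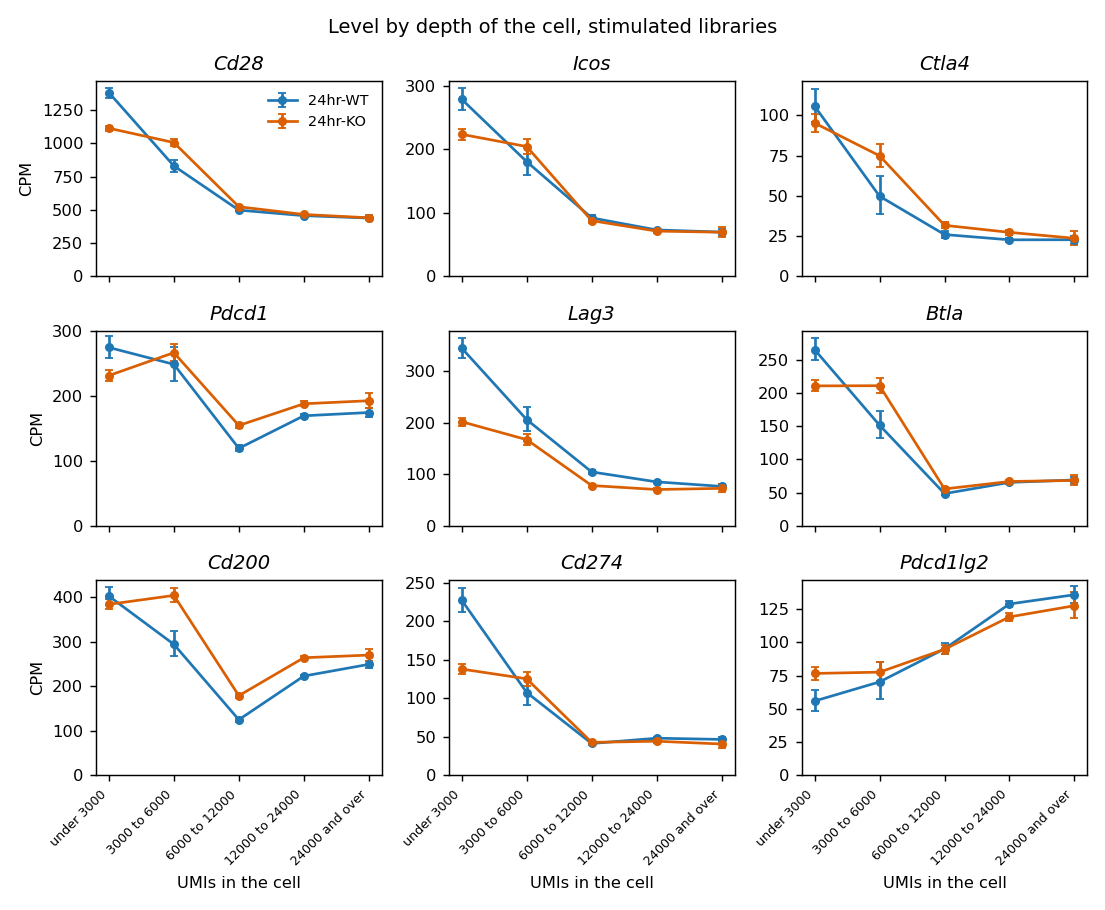
CPM of each gene (vertical axis, from 0) in cells grouped by their UMIs (horizontal axis), for 24hr-WT in blue and 24hr-KO in orange, with exact Poisson 95% intervals. Apart from *Pdcd1lg2*, which is higher in deeper cells, every gene has its highest levels in cells under 6000 UMIs, and *Lag3* is lower and *Cd200* higher in 24hr-KO than in 24hr-WT from 6000 UMIs on.

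Set side by side within ranges of depth, the differences between 24hr-KO and 24hr-WT changed in size and, for most genes, in direction. Depth was not alike within the shallow ranges. Under 3000 UMIs the median cell held 1788 UMIs in 24hr-WT and 2316 UMIs in 24hr-KO, and from 3000 to 6000 UMIs 4198 and 3555 UMIs. The part of this in the ratios was not tested. In cells of 12000 to 24000 UMIs, where the median of all genes was 0.03, the log2 ratio was 0.03 (0.00 to 0.05) for *Cd28*, -0.04 (-0.10 to 0.02) for *Icos* and 0.03 (-0.03 to 0.09) for *Btla*. From 3000 to 6000 UMIs the same 3 genes had ratios of 0.28 (0.19 to 0.37), 0.18 (-0.01 to 0.38) and 0.48 (0.27 to 0.69). The median of all genes in that range was itself 0.23, and it held only 339 cells of 24hr-WT. Under 3000 UMIs, which held 39.6% of 24hr-KO cells, they were lower in 24hr-KO, with -0.31 (-0.36 to -0.27), -0.32 (-0.42 to -0.22) and -0.33 (-0.44 to -0.23). The ratio of *Ctla4* was 0.27 (0.17 to 0.37) from 12000 to 24000 UMIs and -0.15 (-0.31 to 0.01) under 3000 UMIs. For *Cd200* these were 0.24 (0.21 to 0.28) and -0.07 (-0.15 to 0.02), and for *Pdcd1* 0.15 (0.11 to 0.19) and -0.25 (-0.35 to -0.14). Thus 8 of the 9 genes had ratios below 0 among cells under 3000 UMIs, where the median of all genes was also below 0, at -0.07. *Cd200* lay at that median, and the intervals of *Cd200* and *Ctla4* spanned 0. The share of all genes below 0 in this range is not given here, so the count has no background. *Lag3* was lower in 24hr-KO in each of the 5 depth ranges, with ratios of -0.77 (-0.87 to -0.67) under 3000 UMIs, -0.30 (-0.49 to -0.11) from 3000 to 6000, -0.42 (-0.50 to -0.34) from 6000 to 12000, -0.28 (-0.34 to -0.22) from 12000 to 24000 and -0.07 (-0.25 to 0.10) above. *Cd274* was -0.72 (-0.84 to -0.60) under 3000 UMIs, 0.22 (-0.03 to 0.48) from 3000 to 6000, 0.05 (-0.07 to 0.17) from 6000 to 12000, -0.12 (-0.20 to -0.05) from 12000 to 24000 and -0.20 (-0.43 to 0.03) above. *Pdcd1lg2* went from 0.46 (0.24 to 0.67) under 3000 UMIs to -0.11 (-0.16 to -0.07) from 12000 to 24000.

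The few UMIs of the unstimulated cells were not spread evenly. The 343 cells of 0hr-WT with a UMI of *Foxp3*, the factor that defines regulatory T cells, were 4.27% of cells and held 46.2% of all *Ctla4* UMIs. *Ctla4* stood at 86.8 CPM (73.2 to 102) in them and at 4.77 CPM (4.07 to 5.54) in the other cells. The same cells held 33.8% of the *Pdcd1lg2* UMIs, 25 of 74, at 14.97 CPM (9.68 to 22.1) against 1.38 CPM (1.02 to 1.83) in the others. *Icos* stood at 48.5 against 29.6 CPM and *Cd200* at 30.5 against 11.8 CPM, while *Btla* was at 38.9 CPM in both and *Cd28* at 222 against 265 CPM. The median depth was 4583 UMIs in cells with *Foxp3* and 4627.5 UMIs in the others. *Pdcd1* instead was high in the 277 cells with a UMI of *Nr4a1*, an early gene of T cell receptor signaling. It stood there at 35.8 CPM (26.9 to 46.5) against 4.92 CPM (4.21 to 5.70), and these 3.45% of cells held 23.9% of its UMIs. In the 32 cells with a UMI of *S100a4*, a gene of memory T cells, *Icos* reached 225 CPM (158 to 310) against 29.5 CPM, and *Pdcd1* 91.2 CPM (51.1 to 150) against 5.82 CPM, from 37 and 15 UMIs.

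In stimulated cells the same kind of split was read in cells of 12000 to 24000 UMIs only, a range chosen after the values were seen to limit differences in depth. The 980 of these cells in 24hr-WT with a UMI of *Il2*, the growth factor that newly activated T cells make, held more of the ligands and of *Pdcd1* and *Btla*, at a median depth of 16701.5 UMIs against 15342 UMIs. *Pdcd1* stood at 248 CPM in cells with *Il2* and at 146 CPM in those without. *Cd200* stood at 325 against 193 CPM, *Cd274* at 67.7 against 42.8 CPM, *Btla* at 89.1 against 58.5 CPM and *Pdcd1lg2* at 165 against 118 CPM. *Cd28* (361 against 484 CPM), *Icos* (63.7 against 75.8 CPM) and *Ctla4* (15.1 against 24.9 CPM) went the other way. *Lag3* stood at 81.7 against 86.4 CPM, with an interval of the log2 ratio from -0.17 to 0.01. In 24hr-KO the 689 cells with *Il2* had the same 5 genes higher and the same 3 lower, for example *Pdcd1* at 258 against 168 CPM and *Ctla4* at 22.3 against 28.7 CPM. Cells with an *Nr4a1* UMI had the trio lower too, with *Cd28* at 393 against 510 CPM, and *Pdcd1* higher, at 216 against 129 CPM in 24hr-WT. *Lag3* stood in them at 94.4 against 77.6 CPM. The log2 ratio of *Btla* was 0.07 (-0.01 to 0.15) in 24hr-WT and 0.21 (0.11 to 0.31) in 24hr-KO.

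Cells with *Foxp3* and cells with *Il7r*, the receptor subunit that naive cells carry, held more *Icos* and *Ctla4* and less *Pdcd1* than the others. *Cd28* was not higher with them in 24hr-WT, with log2 ratios of -0.15 (-0.27 to -0.04) for *Foxp3* and -0.02 (-0.10 to 0.06) for *Il7r*, and in 24hr-KO these were 0.03 (-0.08 to 0.14) and 0.17 (0.07 to 0.27). In 24hr-WT cells of this depth, *Ctla4* stood at 80.5 CPM in the 91 cells with *Foxp3* and at 21.5 CPM in the others, *Icos* at 134 against 71.8 CPM, and *Pdcd1* at 84.5 against 171 CPM. In the 181 cells with *Il7r*, *Icos* stood at 129 against 70.8 CPM, *Ctla4* at 40.3 against 21.9 CPM and *Pdcd1* at 85.8 against 173 CPM. In 24hr-KO the directions of these 3 genes were the same with either gene, with *Pdcd1* at 160 against 188 CPM for *Foxp3*. Cells with a UMI of *Tbx21*, which encodes T-bet, had more *Lag3* in 24hr-WT (105 against 82.6 CPM, 544 cells). In 24hr-KO, only 52 cells of this depth held *Tbx21*, and the interval of the log2 ratio of *Lag3* was -0.28 to 0.45.

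**Figure D4:**
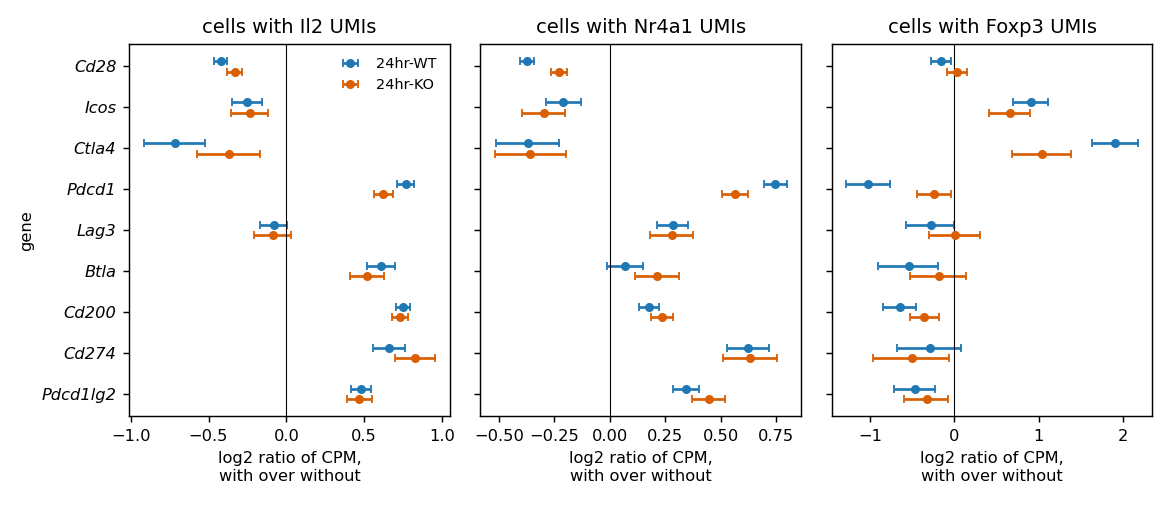
Log2 ratio of CPM of each gene in cells with a UMI of *Il2*, *Nr4a1* or *Foxp3* over cells without, among cells of 12000 to 24000 UMIs in 24hr-WT (blue) and 24hr-KO (orange), with exact binomial 95% intervals for counting error. *Cd28*, *Icos* and *Ctla4* lie left of 0 for *Il2* and *Nr4a1*, *Pdcd1* and *Cd274* lie right of it, and for *Foxp3* the points of *Ctla4* and *Icos* lie right of 0 and that of *Pdcd1* left of it in both libraries.

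The 9 genes were also set against each other within a range of depth, in the same stimulated libraries, so this is not a separate check. Cells of 6000 to 24000 UMIs were thinned to 6000 UMIs, a setting also chosen after the values were seen, and the odds of finding both genes of a pair in a cell were computed for all 36 pairs. This grouping of the genes was chosen from these values and has no test. In 24hr-WT (6924 cells) the 3 pairs among *Cd28*, *Icos* and *Ctla4* had odds ratios above 1, from 1.44 to 2.04. The 10 pairs among *Pdcd1*, *Btla*, *Cd200*, *Cd274* and *Pdcd1lg2* did too, from 1.36 to 2.65. All 15 pairs between these groups had odds ratios below 1, from 0.48 to 0.90. In 24hr-KO (6620 cells) the same 3, 10 and 15 pairs had the same directions, with odds ratios of 1.43 to 1.60, 1.29 to 2.36 and 0.44 to 0.99. Thinning left the original depth of these cells unequal. In both libraries, *Cd28*, *Icos* and *Ctla4* were lower at 12000 to 24000 UMIs than at 6000 to 12000, and the genes of the other group were higher. In 24hr-WT, *Cd28* stood at 456 against 498 CPM and *Cd200* at 223 against 125 CPM. *Lag3* was lower too, at 85.3 against 105 CPM. The part of original depth in the pairs was not tested. The intervals of the shares with and without the partner did not overlap, whichever gene was taken first, for 13 of the 15 pairs in 24hr-WT and 11 in 24hr-KO, and for all 13 pairs within the groups in both libraries. The share of such pairs among all other genes was not computed, and cells are not replicates, so these counts have no background to be read against. In this setting the odds ratios of *Lag3* were nearer to 1, from 0.87 to 1.21 in 24hr-WT and from 0.90 to 1.18 in 24hr-KO. They were below 1 with *Icos* and *Ctla4* and above 1 with the other 6 genes in both libraries, and only that with *Pdcd1lg2* in 24hr-WT (1.21) had intervals that did not overlap. Cells of at least 1400 UMIs thinned to 1400, the planned setting, did not give this split for most pairs between the groups in either library. In 24hr-WT so thinned, *Btla*, *Cd200* and *Cd274* were each found more often with *Cd28*, with *Icos* and with *Ctla4* than without. For example, *Btla* was found in 17.5% of cells with *Icos* and in 11.6% of those without. *Cd274* was found in 10.5% of cells with *Cd28* and in 8.34% of those without. *Pdcd1* and *Pdcd1lg2* were still found less often with each gene of the trio, for example *Pdcd1* with *Ctla4* in 14.3% against 19.4%. The intervals of some of these pairs overlapped. The directions of *Lag3* also changed in 24hr-WT so thinned. It was found more often with *Icos*, in 23.0% against 14.0%, and with *Ctla4*, in 22.9% against 14.9%. With *Pdcd1lg2* it was found in 14.3% against 15.4%.

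The ranks of the pairs changed with the setting, and values of the planned setting are given last. In the cells thinned to 6000 UMIs, the receptor PD-1 and its ligands gave the highest odds ratios in both libraries. *Pdcd1lg2* was found in 54.6% (52.9 to 56.3%) of 24hr-WT cells with *Pdcd1* and in 31.2% of those without, and in 24hr-KO in 49.6% and 29.4%. *Pdcd1* was found in 62.3% (59.8 to 64.8%) of 24hr-WT cells with *Cd274* and in 42.6% of those without, and in 24hr-KO in 67.8% and 48.3%. *Cd200* was found in 65.0% (62.8 to 67.1%) of 24hr-WT cells with its chromosomal neighbor *Btla* and in 46.5% of those without, and in 24hr-KO in 70.6% and 56.7%. *Pdcd1* and *Ctla4*, both inhibitory, had the lowest odds ratio in 24hr-WT, where 31.5% (28.3 to 34.8%) of cells with *Ctla4* and 49.0% of those without held *Pdcd1*. In 24hr-KO these shares were 41.6% and 54.4%. The lowest odds ratio in 24hr-KO was that of *Cd28* and *Pdcd1*. Of cells with *Cd28*, 50.5% (49.3 to 51.8%) held *Pdcd1*, and of those without, 70.1%, and in 24hr-WT 45.7% and 57.2%. The planned setting did not keep this direction in 24hr-KO. *Pdcd1* was found there in 22.4% of 24hr-KO cells with *Cd28* and in 21.8% of those without, with overlapping intervals. In 24hr-WT these shares were 18.6% and 19.7%. In that setting *Pdcd1* with *Pdcd1lg2* was not the highest pair in either library. *Pdcd1lg2* was found there in 16.6% of 24hr-WT cells with *Pdcd1* and in 11.7% of those without, and in 24hr-KO in 13.6% and 10.6%. *Cd274* was found in 19.0% of 24hr-WT cells with *Btla* and in 8.15% of those without, and in 24hr-KO in 17.6% and 9.57%. *Pdcd1* was still found more often with *Cd274*, in 31.0% against 17.9% in 24hr-WT and 35.1% against 20.6% in 24hr-KO. Doublets were not removed, and their part was not tested.

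**Figure D5:**
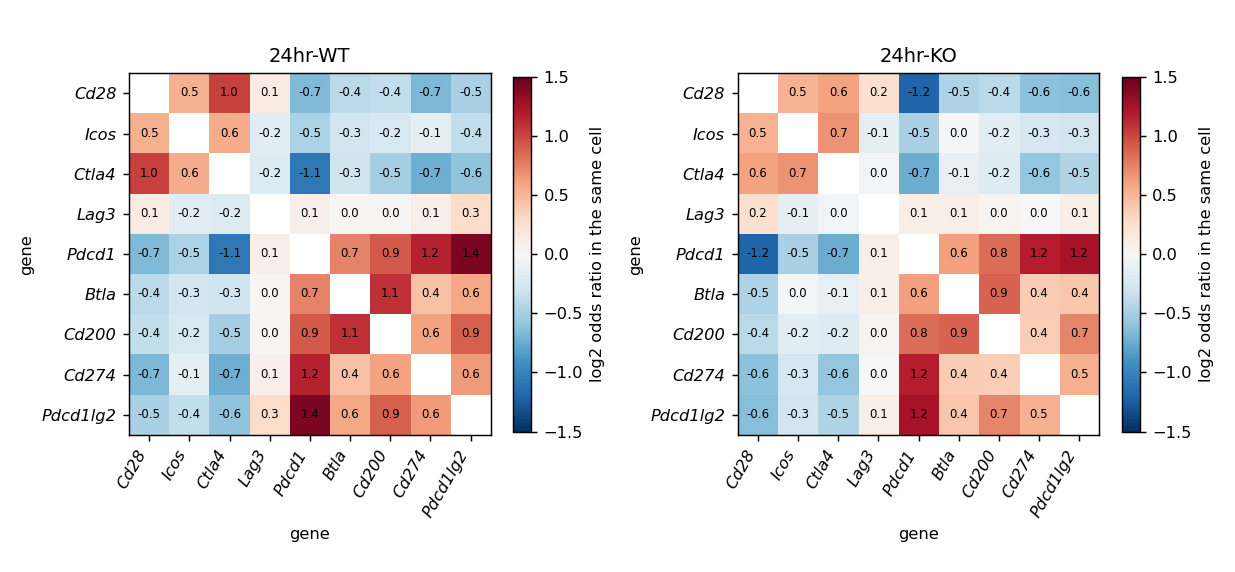
Log2 odds ratio of finding both genes of a pair in the same cell, for cells of 6000 to 24000 UMIs thinned to 6000 UMIs, in 24hr-WT (left) and 24hr-KO (right), with red for pairs found together more often and blue for less often. Red blocks hold *Cd28*, *Icos* and *Ctla4* at the upper left and *Pdcd1*, *Btla*, *Cd200*, *Cd274* and *Pdcd1lg2* at the lower right, the rectangles between them are blue, and the row of *Lag3* is pale.

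Genes around the 9 were read from lists chosen with earlier results known, and 2-fold and 1.5-fold are the bounds used above. Of 17 genes that carry CD28 and ICOS signals, 1 was at least 2-fold higher in 24hr-WT than in 0hr-WT and 6 at least 2-fold lower, with a median log2 ratio of -0.71. Of all genes, 19.3% were at least 2-fold higher and 23% at least 2-fold lower, and these shares stand beside each count of the lists that follow. *Lcp2*, the adaptor SLP-76, stood at 162 and 352 CPM. *Grap2*, an adaptor that binds CD28, stood at 161 and 25.4 CPM, *Pik3r1*, a regulatory subunit of PI3 kinase, at 99.6 and 16.1 CPM, and *Flna*, the actin linker filamin A, at 222 and 61.3 CPM. None of the 17 passed 1.5-fold in 24hr-KO over 24hr-WT. Of all genes, 13.4% were at least 1.5-fold higher and 3.27% at least 1.5-fold lower. These shares stand beside each gene past 1.5-fold in the lists that follow. Of 13 genes of inhibitory signaling, none was at least 2-fold higher and 4 were lower, beside 19.3% and 23% of all genes. These were the membrane adaptor *Pag1* (86.7 and 18.2 CPM), the ubiquitin ligases *Cbl* (90.5 and 31.6 CPM) and *Itch* (42.3 and 17.2 CPM) and the lipid phosphatase gene *Inpp5d* (48.0 and 20.4 CPM). *Pag1* was the only one past 1.5-fold in 24hr-KO, at 32.6 CPM. *Ptpn6* and *Ptpn11*, the phosphatases SHP-1 and SHP-2 that inhibitory receptors recruit, stood at 153 and 224 CPM and at 29.8 and 59.0 CPM.

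Of 16 further ligands and partners, 14 were in the feature table and 10 had enough UMIs in the stimulation comparison, of which 2 were at least 2-fold higher and 3 lower, beside the same shares. *Cd86*, a ligand of CD28 and CTLA-4, stood at 3.85 CPM in 0hr-WT and 0.28 CPM in 24hr-WT, and *Icosl*, the ligand of ICOS, at 2.88 and 0.026 CPM. *Cd80*, the other ligand of CD28 and CTLA-4, was 1 of the 2 higher genes, at 0.22 and 0.62 CPM from 8 and 72 UMIs. In 24hr-KO over 24hr-WT, *Cd80* (1.03 CPM) was past 1.5-fold higher, with a log2 ratio of 0.75 (0.31 to 1.20). *Cd86* (0.17 CPM) was past 1.5-fold lower, but from 33 UMIs in 24hr-WT and 18 in 24hr-KO. Its log2 ratio was -0.74, with an interval that spans 0 (-1.65 to 0.13). *Cd200r1*, the receptor of CD200, stood at 10.5 and 1.14 CPM, while its ligand gene *Cd200* was higher after stimulation. *Tnfrsf14*, which encodes the BTLA partner HVEM, stood at 6.71 and 4.56 CPM, *Vsir* at 184 and 115 CPM, *Cd48* at 164 and 83.0 CPM and *Pvr*, a ligand of TIGIT and CD96, at 13.4 and 7.04 CPM. Of 12 other receptors of the immunoglobulin family with enough UMIs, 3 were at least 2-fold higher and 4 lower, beside 19.3% and 23% of all genes. *Slamf1* stood at 17.2 and 165 CPM, *Cd160*, which also binds HVEM, at 1.75 and 18.0 CPM, *Cd7* at 60.3 and 1.89 CPM and *Cd96* at 57.1 and 12.0 CPM. Past 1.5-fold higher in 24hr-KO were *Cd226* (19.2 CPM in 24hr-WT and 34.6 CPM in 24hr-KO) and *Cd96* (18.8 CPM in 24hr-KO).

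Of 14 counted genes for the trafficking, shedding and transcript decay of these proteins, 1 was at least 2-fold higher and 4 lower, beside 19.3% and 23% of all genes. *Trat1*, the adaptor TRIM that aids CTLA-4 transport, stood at 95.6, 12.8 and 7.84 CPM in 0hr-WT, 24hr-WT and 24hr-KO. *Rc3h1* and *Rc3h2*, which encode the Roquin proteins that destroy *Icos* RNA, stood at 39.5 and 13.6 CPM and at 23.5 and 11.4 CPM in 0hr-WT and 24hr-WT, and *Cmtm6*, which keeps PD-L1 at the surface, at 79.5 and 39.5 CPM. *Trat1* was past 1.5-fold lower in 24hr-KO than in 24hr-WT, and *Adam10*, a surface protease, past 1.5-fold higher (51.1 and 83.6 CPM). Of 20 transcription factors named for these genes, 8 were at least 2-fold higher and 5 lower, beside 19.3% and 23% of all genes. *Irf4* stood at 1.75 and 115 CPM, *Nr4a2* at 0.97 and 37.9 CPM and *Nr4a3* at 3.31 and 32.2 CPM. *Tbx21* stood at 0.65, 13.2 and 1.45 CPM in 0hr-WT, 24hr-WT and 24hr-KO, a log2 ratio of -3.19 for 24hr-KO over 24hr-WT. The other factors past 1.5-fold in that comparison were *Irf1*, lower at 117 and 69.7 CPM, and *Foxp3*, higher at 3.12 and 4.69 CPM.

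For each of the 9 genes the 3 genes with the nearest pair of log2 ratios (24hr-WT over 0hr-WT and 24hr-KO over 24hr-WT) were found among 6084 genes with at least 20 CPM in any library. Over 3 libraries this likeness is a description. *Lag3* lay nearest to *Phlda3* (distance 0.13), *Fosl1* (0.15) and *Tg* (0.25), and *Pdcd1lg2* to *Spry1* (0.07), *Fosl1* (0.23) and *Tg* (0.29). *Cd200* lay nearest to *Tnfrsf9* (0.10), which encodes the costimulatory receptor 4-1BB, *Rilpl2* (0.14) and *Cdc45* (0.15). *Pdcd1* lay nearest to *Cenpm* (0.17) and *Eea1* (0.23), and *Cd274* to *Rfc5* (0.02), *Hif1a* (0.05) and *Slc7a5* (0.07). *Ctla4* had *Gphn* (0.08), *A630089N07Rik* (0.17) and *Cbx5* (0.18), and *Icos* had *Tada2a* (0.02), *Dnmt3a* (0.03) and *Cdca7l* (0.03). *Cd28* had *Snd1* (0.03), *Zfp106* (0.03) and *Ipcef1* (0.04), and *Btla* had *Rtn3* (0.02), *Supt3* (0.04) and *Ece1* (0.04). Of the genes named here, *Fosl1* and *Tg* were near both *Lag3* and *Pdcd1lg2*, and none of the others was near more than 1 of the 9.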

How the data were processed

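Single-cell RNA libraries of sorted CD4+ T cells were analyzed, 1 per group (n = 1 library each). The authors aligned reads and counted UMIs with Cell Ranger, given as version 3.1.0 in the deposited file headers, on build mm10, and deposited raw counts of UMIs per gene and called barcode. The labels name a 5′ kit and the methods a 3′ kit, which decides the transcript end counted. The study's own filter was applied: barcodes needed over 200 detected genes, with mitochondrial transcripts below 15%. UMIs were summed per library and gene and given as CPM. Exact Poisson intervals were used for levels, exact binomial intervals for ratios and exact Clopper-Pearson intervals for shares, at 95%. They cover counting error only, cells are not replicates, and no test was run. A gene needed 10 UMIs in the summed pair of libraries to enter the counts over all genes. For thinning, 1400 UMIs were drawn per cell without replacement (seed 7). No cells were clustered and no doublet caller was run. On simulated counts the interval held the true ratio of 96% of 200 changed genes in the stimulation comparison (13155 genes) and of 94.5% in the knockout comparison (13372 genes). These counts were independent Poisson draws, the model that the interval assumes, without variation between cells or libraries. They check the computation only.

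The 9 genes and all lists were chosen with earlier results of these data known. Named beside the 9 were *Ift20*, the markers, the 3 nearest genes of each, and up to 4 genes of each list with the largest absolute log2 ratio among those with at least 10 CPM. Some genes that this rule or the marker lists gave are not reported here. *Lcp2*, *Ptpn6*, *Ptpn11*, *Cd80*, *Cd86*, *Icosl*, *Tnfrsf14*, *Cd226*, *Adam10*, *Irf1* and *Foxp3* were named after their values were seen. Alternatives were a strict filter, all barcodes, UMIs per cell, means of per-cell fractions, median-ratio scaling, thinning, a common range of depth and leaving out *Il7r* cells, and, added after the values were seen, cells of 3000 UMIs and over. Python 3.11.15, numpy 2.4.6, scipy 1.17.1, pandas 2.3.3 and matplotlib 3.10.9 were used. Sequences came from GENCODE M21 and RefSeq.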

Additional observations from a re-analysis of the deposited data

How the results depend on the processing

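All 9 genes were higher in 24hr-WT than in 0hr-WT under each of the 8 settings tried for that comparison, and the number at least 2-fold higher was 7 to 9. In 24hr-KO over 24hr-WT, counting UMIs per cell in place of CPM turned 7 log2 ratios, to -0.38 for *Cd28*, -0.36 for *Icos*, -0.0554 for *Ctla4*, -0.44 for *Pdcd1*, -0.29 for *Btla*, -0.34 for *Cd200* and -0.47 for *Cd274*, and put 2 genes (*Lag3* and *Pdcd1lg2*) past 1.5-fold lower. 24hr-KO cells held fewer UMIs each. The strict filter (at least 1000 genes, under 10% mitochondrial UMIs) turned *Lag3* to 0.0366, and cells of 6000 to 24000 UMIs turned *Cd274* to -0.0923. The cause was not tested. The strict filter and the setting without *Il7r* cells each put 1 gene, *Ctla4*, past 1.5-fold higher. With cells of 3000 UMIs and over, 7 genes were at least 2-fold higher after stimulation and 0 past 1.5-fold in 24hr-KO. *Lag3* was at -0.17 with cells of 3000 UMIs and over and at -0.29 with cells of 6000 to 24000 UMIs. No paired analysis was possible because each group has 1 library. At 48 and 74 UMIs, *Lag3* and *Pdcd1lg2* in 0hr-WT were the least precise levels.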
